A study of Mus musculus with 6 samples.

Results

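The comparison described here asks whether the brain's early transcript response to naloxone is different in sickle cell mice and wild-type mice. It uses all 6 of the 6 arrays of the study, each a BMAP (Brain Molecular Anatomy Project) cDNA microarray hybridised with total RNA from the brains of 9-week-old males. On 3 arrays, NY1DD mice given naloxone were set against NY1DD mice given saline, and on the other 3 arrays C57BL/6J mice given naloxone were set against C57BL/6J mice given saline. In both strains RNA was taken 10 min after treatment, with naloxone RNA in Cy5 and saline RNA in Cy3 on each array and no dye swap. The labels call NY1DD a transgenic mouse model of sickle cell anemia and name no allele, no dose and no injection route. As background, NY1DD mice carry human globin transgenes that encode sickle haemoglobin and have mild disease. The labels do not say whether the arrays come from separate animals or pools, so the errors below measure the spread between arrays, which may be technical.

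Naloxone blocks opioid receptors, with the mu receptor as its main target. These receptors couple to inhibitory G proteins, which lower cyclic AMP, open potassium channels and close calcium channels, and RGS proteins end the signal by speeding GTP hydrolysis. Their ligands in brain are the enkephalins, dynorphins and endorphin, cut from the precursors encoded by Penk, Pdyn and Pomc. Immediate early genes are the transcripts that respond first when neurons are stimulated. Sickle haemoglobin polymerises without oxygen, and the disease brings haemolysis, iron release, hypoxia, inflammation and pain.

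Every value is a log2 ratio of the 2 channels, likely naloxone over saline, as the design text of the series assigns naloxone to Cy5. If the numerator was saline, every sign turns. A difference is the NY1DD mean minus the C57BL/6J mean of these ratios, so a positive difference is written as higher in NY1DD, and it says nothing of transcript levels in untreated mice. Any dye bias that all arrays share drops out of this difference. The numbers in the sample titles are unexplained: C57BL/6J replicates 1 and 2 share a number and no number occurs in both strains, so if they mark a batch, batch and strain cannot be told apart. Usable probes ran from 11155 to 11413 per array, and they made 9685 features (6146 genes and 3539 single probes without a single gene symbol). The position of a probe in its source plate well explained 3.20% to 11.4% of the variance on 5 arrays but 27.5% on NY1DD replicate 2, and well medians were subtracted. Ratios carry no level, so the presence of brain markers could not be checked.

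No gene passed the test for a different naloxone response in the 2 strains. Limma passed 0 of 9685 features (0%) at an adjusted p of 0.05, and the smallest adjusted p was 0.918. At an unadjusted p under 0.05 there were 502 features (5.18%), of which 318 were higher in NY1DD (3.28%) and 184 were lower (1.90%). Without C57BL/6J replicate 3 the number of features was 325. With all 6 arrays, 145 of the 6146 genes were higher and 116 lower at this threshold. For 943 of the 9175 features with a value on every array (10.3%), the 3 arrays of one strain all lay above the 3 arrays of the other. They comprised 499 features higher in NY1DD (5.44%) and 444 lower (4.84%). Of the 5857 genes with a value on every array, 280 were higher without overlap and 293 lower. In 113 features (1.23%) all NY1DD arrays were above 0 and all C57BL/6J arrays below 0, and 106 features (1.16%) had the reverse. For any 1 gene, an exact permutation test of 3 arrays against 3 cannot go below p = 0.1.

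The precision limits what could be seen. The median standard error (SE) of a difference was 0.24, and the median half-width of its 95% interval was 0.57, which is a 1.48-fold difference in response. The median absolute difference was 0.19. The correlation between pairs of arrays, taken over features that are no independent replicates, was 0.07 to 0.14 within NY1DD (median 0.129), 0.13 to 0.14 within C57BL/6J (median 0.135) and -0.05 to 0.17 between the strains (median 0.121). The ranges overlapped, and all pairs share the platform and the dye orientation.

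**Figure D1:**
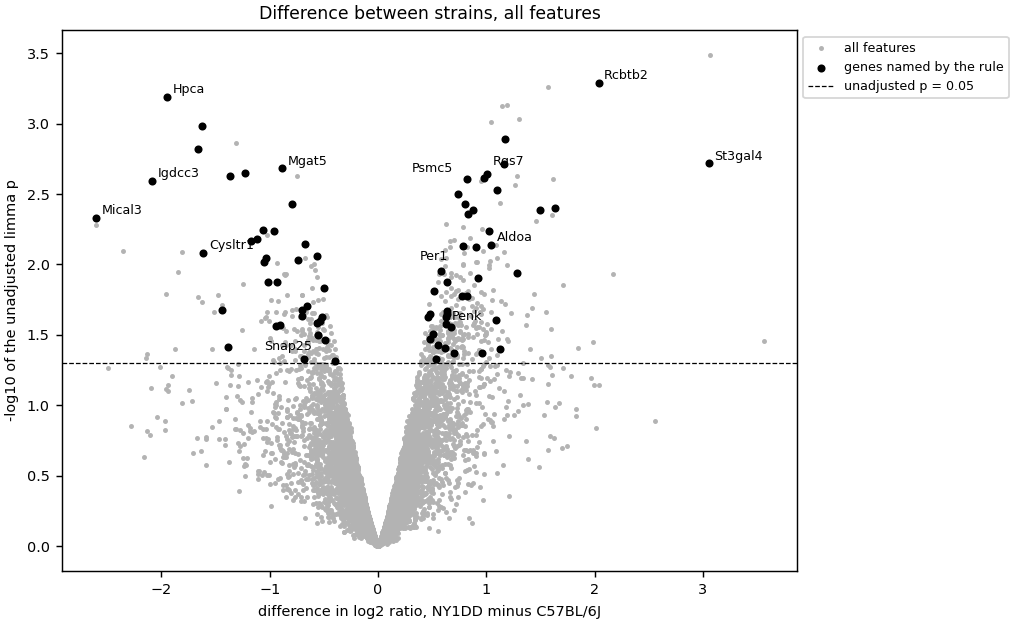
Difference in log2 ratio (NY1DD minus C57BL/6J, horizontal axis) against the -log10 unadjusted limma significance (vertical axis) for 9685 features, with the 77 named genes in black and the dashed line at the 0.05 level. The 502 features above the line were 5.18% of those tested, and none passed after adjustment.

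The 77 genes named below were picked by rules that rank genes by p or, for 16, taken from an earlier description of these data. Their unadjusted p-values and the separation of their arrays therefore follow from the choice and support nothing. All 77 had the same limma adjusted p of 0.918. Array values are given in the order of replicates 1, 2 and 3.

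For the measured opioid peptides and regulators the median difference was close to 0. No gene for the mu receptor or another classical opioid receptor was among the 13 members measured. Of these 13 genes in the list of opioid receptors, peptides and regulators, 8 were higher and 5 lower in NY1DD. The median difference was 0.03 against 0.003 over all features. That median was -0.01 when NY1DD replicate 3 was left out and -0.10 when C57BL/6J replicate 1 was. Just 1 of the 13 had an unadjusted p under 0.05, beside 5.18% of all features: Penk, the precursor of the enkephalins. Its log2 ratios in NY1DD were 0.35, 0.21 and 0.80, and those in C57BL/6J were -0.42, -0.07 and -0.03. The 3 NY1DD arrays lay above 0 and the 3 C57BL/6J arrays below it, with no overlap, and the difference was 0.63 (SE 0.22). Both Penk probes, for which the same sign was a condition of 1 of the rules, gave this size of difference, 0.63 and 0.62, although on the second probe the lowest NY1DD array, at 0.01, lay beside the highest C57BL/6J array, at 0.02.

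For the other precursors the intervals were wide and included both 0 and the difference of Penk. Pdyn, the dynorphin precursor, had ratios of -0.50, 0.40 and -0.04 in NY1DD and 0.12, 0.22 and -0.43 in C57BL/6J, a difference of -0.02 (SE 0.29). Pomc, which encodes the endorphin precursor, ran from -1.04 to 1.72 in NY1DD and from -1.33 to 1.46 in C57BL/6J, so its difference of 0.30 had an SE of 0.90. In Pomc the spread within each strain was wider than the difference between them. The enzyme that trims these peptides, Cpe, differed by 0.17 (SE 0.19). Of the receptor regulators, the arrestins Arrb1 and Arrb2 differed by -0.19 (SE 0.17) and -0.18 (SE 0.24), the receptor kinase Grk3 by -0.05 (SE 0.39), and Rgs4 by 0.03 (SE 0.22). Ogfrl1, related to the opioid growth factor receptor, had 0.11, 0.45 and -0.03 in NY1DD and -0.20, -0.15 and -0.17 in C57BL/6J (difference 0.35, SE 0.19), and with Penk it was 1 of 2 members without overlap, beside 5.44% of all features that were higher. The remaining members, Ece1, Ogfr, Pcsk1n and Scg5, ranged from -0.12 to 0.11.

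Signalling through G proteins and cyclic AMP gave 29 higher and 20 lower of 49 genes, with a median of 0.05. It was positive under all 17 alternative settings, which reuse the same arrays. That median was 0.03 without C57BL/6J replicate 2 and 0.09 without C57BL/6J replicate 1. At an unadjusted p under 0.05, 2 of the 49 members were higher and 1 lower, beside 3.28% and 1.90% of all features. Rgs7, an RGS protein of neurons that acts on inhibitory G proteins, had ratios of 0.49, 0.30 and 0.70 in NY1DD and -0.49, -0.80 and -0.23 in C57BL/6J. In the average of its probes the strains lay on opposite sides of 0, and the difference was 1.01 (SE 0.22). Its 2 probes differed by 0.96 and 0.95, the same sign being a condition of 1 of the rules that chose it. The first had no value on NY1DD replicate 1 and C57BL/6J replicate 2, and C57BL/6J replicate 1 read -1.21 on the first and 0.22 on the second.

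The phosphodiesterases, which break down cyclic AMP, pointed in opposite directions. Pde4a had 0.49, 0.28 and 0.60 in NY1DD and 0.13, 0.02 and -0.44 in C57BL/6J (difference 0.55, SE 0.21). Pde4d had 0.05, -0.58 and -0.96 in NY1DD and 0.35, -0.02 and 0.22 in C57BL/6J (difference -0.68, SE 0.28). The strain arrays overlapped for Pde4d and not for Pde4a. Among 65 genes for MAP kinases, calcium kinases and phosphatases, 33 were higher and 32 lower (median 0.02, with the sign turning in 6 of 17 settings). Under an unadjusted p of 0.05 were 2 members, both higher, beside 5.18% of all features. Camk2a, the main calcium-dependent kinase of excitatory synapses, differed by 0.70 (SE 0.28) with its C57BL/6J replicate 1 (0.43) above the lowest NY1DD array (0.39). Map2k1, the kinase that activates ERK, differed by 0.53 (SE 0.22) with no overlap of arrays.

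Of 12 measured immediate early and activity-dependent genes, 7 were higher and 5 lower (median 0.10, with a range of 0.02 to 0.18 over the alternatives). Under an unadjusted p of 0.05 were 2 members, both higher, beside 5.18% of all features. Per1, a clock gene that is also induced by neuronal activity through CREB, had ratios of -0.35, -0.02 and -0.10 in NY1DD and -0.65, -0.98 and -1.21 in C57BL/6J. All 6 arrays were below 0, so the difference of 0.79 (SE 0.21) marks a less negative ratio in NY1DD. Ier5, an immediate early gene, had 1.21, -0.18 and 1.09 in NY1DD and -0.32, 0.10 and -1.05 in C57BL/6J, and its NY1DD replicate 2 fell within the C57BL/6J range (difference 1.13, SE 0.45).

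The other members of that list had unadjusted p-values above 0.05. Egr1, a zinc finger factor used as a marker of neuronal activity, differed by 0.31 (SE 0.27), and Jund and Fosl2, of the AP-1 family, by 0.34 (SE 0.19) and 0.31 (SE 0.17). Fosl2 had 0.30, 0.41 and 0.21 in NY1DD against 0.15, -0.16 and -0.02 in C57BL/6J, and Jund had 0.05, -0.08 and 0.04 against -0.12, -0.61 and -0.29. The Jund values average probes whose differences had opposite signs, -0.08 and 0.69. The strains did not overlap in Fosl2, Jund, Per1 and Klf6, which makes 4 of the 12 members, all higher in NY1DD, beside 5.44% of all features. Creb1, which encodes CREB, differed by -0.46 (SE 0.53) with 1 array, C57BL/6J replicate 3 at 1.93, far above the other 5, which ran from -0.18 to 0.52. Without a value for signal over background, such single high ratios cannot be weighed here.

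Because Per1 is a known target of CREB, its promoters are shown with TGACG, the shorter form of the CREB site, in capitals (30 bases, RefSeq, GRCm38.p6, 5′ to 3′).
Per1, chr11:69098699-69098728, plus strand: ttatTGACGgtgtgagacatcctgatcgca
Per1, chr11:69100008-69100037, plus strand: gagctcagcggcTGACGtcggtttccctgg
The search covered 250 bases before to 50 after each listed start, on both strands. TGACG was found in 3 of the 10 list members with a promoter entry (30%), against 23% of all 27025 genes. The full TGACGTCA was found in 0 of those 10 and in 2.03% of all genes. A match is a description of letters, not a site.

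**Figure D2:**
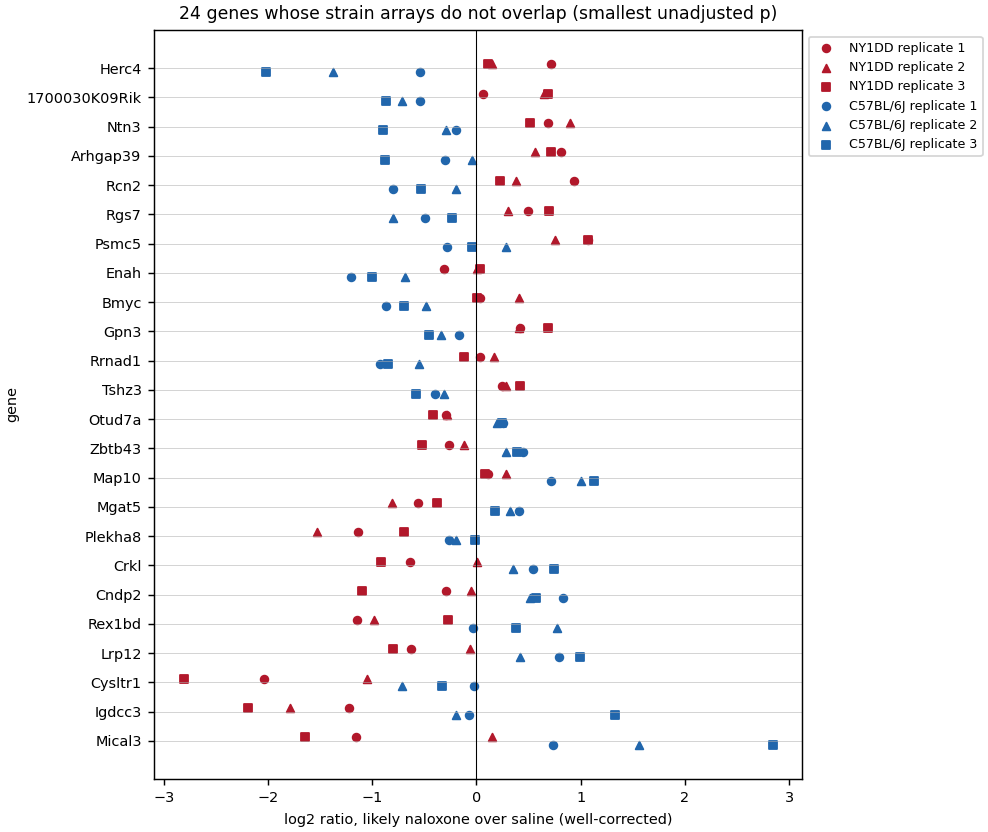
Log2 ratio, likely naloxone over saline (horizontal axis), on each of the 3 NY1DD arrays (red) and 3 C57BL/6J arrays (blue) for 24 genes chosen because the strains' arrays do not overlap. Rgs7 and Ntn3 have the strains on opposite sides of 0, whereas Map10 is above 0 and Plekha8 below 0 on all 6 arrays.

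Synaptic genes lay on both sides. For 45 synaptic vesicle and release genes, 22 were higher and 23 lower (median -0.01, the sign turning in 3 of 17 settings), and 2 members, both lower, had an unadjusted p under 0.05, beside 5.18% of all features. Snap25, a SNARE protein that fuses vesicles with the membrane, had ratios of 0.06, -0.08 and 0.21 in NY1DD and 0.78, 0.29 and 0.76 in C57BL/6J (difference -0.55, SE 0.21). The NY1DD arrays lay around 0 and every C57BL/6J array above them. The differences on its 3 probes were -0.58, -0.61 and -0.46. On the second probe NY1DD replicate 3, at 0.31, lay above C57BL/6J replicate 2, at 0.22. Snap25 was chosen by the p of the probe average, which favours probes of one sign. Synj1, a lipid phosphatase that strips the coat from recycled vesicles, had -0.19, -0.07 and 0.10 in NY1DD and 0.63, 0.44 and 0.23 in C57BL/6J (difference -0.49, SE 0.19), and its probes differed by -0.11 and -0.87.

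Transmitter systems gave no member under an unadjusted p of 0.05, beside 5.18% of all features. Among GABA genes 6 of 12 were higher (median -0.05), among glutamate genes 8 of 21 (median -0.01), among monoamine and acetylcholine genes 10 of 13 (median 0.09), among neuropeptides and neurotrophins 6 of 11 (median 0.04), and among voltage-gated and potassium channels 23 of 42 (median 0.04). Each of these medians changed sign under at least 1 alternative. In 11 pain receptors and inflammatory mediators, 5 were higher and 6 lower, with a median of -0.12 that became 0.02 without C57BL/6J replicate 3. In this list 1 of the 11 had an unadjusted p under 0.05, beside 5.18% of all features: Cysltr1, a receptor for cysteinyl leukotrienes. It had -2.04, -1.05 and -2.81 in NY1DD and -0.02, -0.71 and -0.33 in C57BL/6J, negative on every array and more so in NY1DD (difference -1.61, SE 0.44).

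Genes with several probes give a check that the arrays hold within themselves. For 1030 genes with exactly 2 probes, the difference had the same sign on both probes in 554 (53.8%), and the correlation between the probes was 0.03. For the naloxone ratio itself, the same sign was found in 51.9% of genes for the NY1DD mean and 51.3% for the C57BL/6J mean. Over the table, then, a gene's probes shared little of the difference, and Snap25 and Penk were picked from many genes. Pltp, a phospholipid transfer protein of vessel walls, shows the opposite case, with a difference of 0.62 on one probe and -2.02 on the other. Plekha8, a lipid transfer protein of the Golgi, had -1.52 and -0.22, the second without a value on NY1DD replicate 1. For 8 genes per direction the rule required probes of the same sign, so their agreement is by selection. Among these, Arhgap39 differed by 1.10 (SE 0.25; probes 0.99 and 1.21). On its first probe NY1DD replicate 2, at -0.05, lay below C57BL/6J replicate 2, at 0.37. Meg3, a long noncoding RNA, differed by 0.82, Nqo2, a quinone reductase, by 0.68, and Ifngr2, a chain of the interferon gamma receptor, by -0.65. Aldh1a1, which makes retinoic acid, had -0.56, and Metrn, a secreted glial factor, had -0.52. In several of these genes 1 probe held most of the difference. Lmo1, a LIM-domain transcription regulator, had 1.29 (probes 1.82 and 0.21, the second without a value on NY1DD replicate 1). Dipk1b had 0.63 (0.20 and 1.05) and Nav3 0.48 (0.10 and 0.85). Srgap2 had -0.54 (-0.13 and -0.95), Cald1, an actin-binding protein, -1.05 (-0.33 and -1.77), and Mir100hg, a noncoding host transcript, -1.44 (-0.12 and -3.13). Dgkz, a diacylglycerol kinase, differed by -0.90 and by 0.33 with values at the lower limit of the ratio kept.

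**Figure D3:**
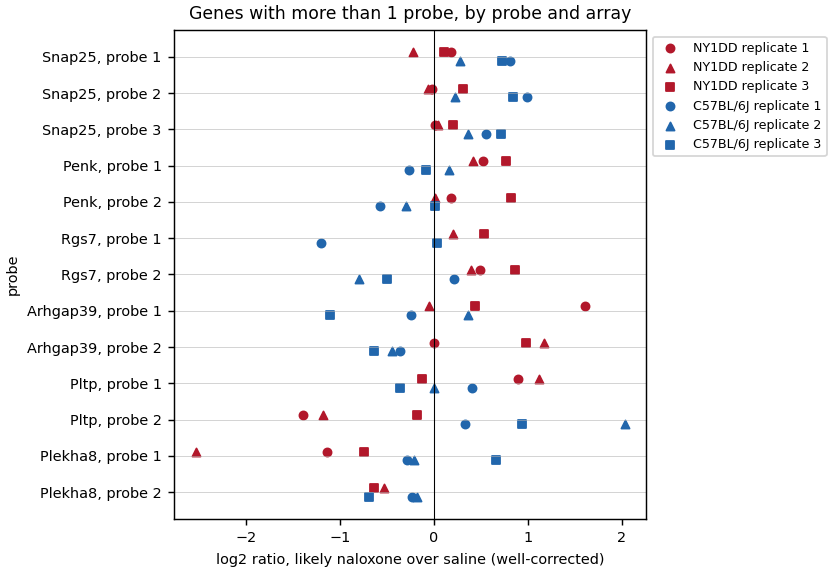
Log2 ratio on each array (horizontal axis) for every probe of 6 genes, NY1DD in red and C57BL/6J in blue. The 3 Snap25 probes have differences of -0.58, -0.61 and -0.46, while the 2 Pltp probes differ in sign (0.62 and -2.02).

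**Figure D4:**
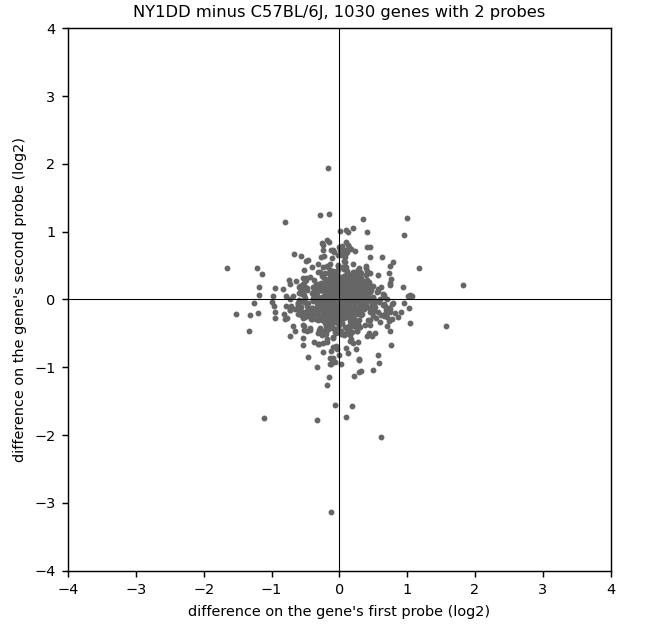
Difference between strains on one probe (horizontal axis, log2) against the other probe (vertical axis, log2) for 1030 genes with 2 probes. The cloud has no slope (correlation 0.03).

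Most ribosomal protein genes had a positive difference. Of 41 cytosolic ribosomal protein genes, which encode the parts of the cell's protein-making machine, 36 were higher and 5 lower in NY1DD, with a median difference of 0.16, against 4888 of 9685 features higher and a median of 0.003. The per-array medians of the list were 0.43, 0.02 and 0.12 in NY1DD and -0.15, 0.12 and -0.03 in C57BL/6J, so the strains overlap and the largest contrast is between replicate 1 of each. Without NY1DD replicate 1 the count was 28 of 41 and the median 0.08, and without C57BL/6J replicate 1 it was 29 of 41 and 0.09. The list median was positive under all 17 alternatives, which reuse the same arrays and so give no independent support. Ribosomal transcripts are abundant and have many pseudogene copies that a cDNA probe can also bind, so each member's value is uncertain in that respect.

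Under an unadjusted p of 0.05 were 3 of the 41 ribosomal members, all higher, beside 3.28% of all features higher and 1.90% lower. Rps18, of the small subunit, had 0.39, 1.18 and 0.37 in NY1DD and -0.85, 0.44 and -0.52 in C57BL/6J (difference 0.96, SE 0.39), and C57BL/6J replicate 2 lay inside the NY1DD range. Rpl21 of the large subunit had 0.46, 0.34 and -0.04 against -0.64, -0.20 and -0.32 (difference 0.64, SE 0.22), and Rplp1, a stalk protein, had 0.43, 0.49 and 0.31 against -0.12, -0.02 and -0.01 (difference 0.46, SE 0.16). Rplp1 differed by 0.18 before the well correction. The lowest members were Rps27 at -0.24 (SE 0.35) and Rps6 at -0.22 (SE 0.22).

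Ribosomal protein messages are known for a run of pyrimidines at the transcript's start, by which their translation is controlled. Starts of 3 members with a positive and 1 with a negative difference are shown, with the run of C and T in capitals (10 bases before the RefSeq start to 20 from it, GRCm38.p6, 5′ to 3′).
Rps18, chr17:33955646-33955675, minus strand: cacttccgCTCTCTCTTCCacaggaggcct
Rps24, chr14:24490668-24490697, plus strand: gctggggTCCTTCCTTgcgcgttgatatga
Rpl28, chr7:4792955-4792984, plus strand: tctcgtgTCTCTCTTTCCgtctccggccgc
Rps6, chr4:86857348-86857377, minus strand: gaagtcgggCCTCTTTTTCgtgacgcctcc
The run, at least 7 pyrimidines on the sense strand reaching within 5 bases of the start, was found in 15 of the 32 members with a promoter entry (46.9%) and in 15.7% of all 27025 genes. Rps24 (difference 0.66, SE 0.36), Rpl28 (0.30, SE 0.24) and Rps6 (-0.22, SE 0.22) each carry it. The intervals of these 3 included 0. The Rps6 probes differed by 0.02 and -0.47, so the sign of the negative example is not settled.

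The other parts of protein turnover were smaller or mixed. In the proteasome, the complex that degrades ubiquitin-tagged proteins, 23 of 31 genes were higher (median 0.12, positive in all 17 alternatives, 0.06 before the well correction). Psmc5, an ATPase of its regulatory cap, had 1.07, 0.76 and 1.07 in NY1DD and -0.28, 0.28 and -0.04 in C57BL/6J. Its NY1DD arrays were all well above the C57BL/6J arrays, by 0.98 on average (SE 0.21). Psme3, an activator cap, differed by 0.48 (SE 0.18), and the other ATPases ranged from Psmc2 at -0.06 (SE 0.19) to Psmc6 at 0.74 (SE 0.91). Psmc3ip (0.06, SE 0.45), which is no proteasome subunit, was also counted among the 31. The ubiquitin enzymes gave 47 of 85 higher (median 0.05), with Cul4a, a ligase scaffold, at -1.01 (SE 0.31) and Fbxo6, which recognises glycoproteins, at -0.50 (SE 0.16). Herc4, a ubiquitin ligase, had 0.71, 0.15 and 0.11 in NY1DD and -0.54, -1.38 and -2.02 in C57BL/6J, all NY1DD arrays above 0 and all C57BL/6J arrays below (difference 1.64, SE 0.39).

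Of translation factors, 21 of 39 were higher (median 0.02, turning in 3 settings), with Eef1d, an elongation factor subunit, at 0.63 (SE 0.19). Mitochondrial ribosome and import genes split 39 to 28 (median 0.01), with 3 members under an unadjusted p of 0.05 on each side, beside 3.28% of all features higher and 1.90% lower. Of the 3 with the smallest p, Mrpl14 differed by 0.52 (SE 0.16), Mrpl12 by 0.64 (SE 0.22) and Mrps23 by -0.93 (SE 0.27, no value on NY1DD replicate 1). Splicing factors and RNA helicases were higher in 25 of 58 (median -0.07, with -0.02 without NY1DD replicate 2, -0.03 without C57BL/6J replicate 2 and -0.002 without C57BL/6J replicate 3), and heat shock proteins and chaperones in 28 of 58 (median -0.02). Hyou1, a chaperone of the endoplasmic reticulum, differed by -1.39 (SE 0.54), with C57BL/6J replicate 2 at 2.71, against 0.73 and 0.76 on the other C57BL/6J arrays, and Dnajb14, a co-chaperone, by -0.40 (SE 0.17). Histones and chromatin genes were higher in 30 of 48 (median 0.10), and Kdm6a, an X-linked histone demethylase, differed by -0.74 (SE 0.21).

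Most energy genes had small positive differences. Of 60 oxidative phosphorylation genes 40 were higher (median 0.10, but 0.04 when NY1DD replicate 1 was left out and 0.02 when C57BL/6J replicate 1 was). The per-array medians were 0.22, 0.02 and 0.003 in NY1DD and -0.18, 0.10 and -0.001 in C57BL/6J, overlapping. Of 35 genes for glycolysis, pyruvate and the TCA cycle 24 were higher (median 0.09, but -0.06 without NY1DD replicate 1). Aldoa, a glycolytic aldolase, had 1.40, 0.58 and 0.56 in NY1DD and -0.03, -0.11 and -0.46 in C57BL/6J (difference 1.05, SE 0.28), without overlap. The respiratory complex I subunits Ndufs6 and Ndufb7 differed by 0.58 (SE 0.17) and 0.51 (SE 0.19), and Ndufs6 was tight in NY1DD at 0.51, 0.50 and 0.63.

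Several further lists cover processes of sickle cell disease. Of 37 genes for haem breakdown, iron and antioxidant defence, 15 were higher and 22 lower (median -0.03). Aco1, which in low iron becomes an RNA-binding regulator of iron genes, had -0.37, -0.26 and -0.67 in NY1DD and -0.03, 0.13 and 0.69 in C57BL/6J (difference -0.70, SE 0.24). Hmox1, the inducible haem oxygenase, differed by 0.35 (SE 0.26), its constitutive partner Hmox2 by 0.07 (SE 0.16), the ferritin chains Fth1 and Ftl1 by 0.21 (SE 0.21) and 0.23 (SE 0.16), and Trf, transferrin, by -0.39 (SE 0.18). Each of these 5 intervals included 0. Hypoxia response genes were higher in 8 of 11 (median 0.07), Aldoa among them, and genes of NF-kappaB, inflammation and cytokine signalling in 5 of 12 (median -0.01, turning in 6 settings). The red cell probe Hba-a2, for alpha globin and not separable from its near-identical copy, had 0.49, -0.75 and -0.39 in NY1DD and -0.85, 0.88 and -0.55 in C57BL/6J, a difference of -0.04 (SE 0.52).

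Markers of cell types were measured as groups, and in whole brain fewer cells of a type and less RNA per cell cannot be told apart. Astrocyte markers were lower in 16 of 22, against 4797 of 9685 features (median -0.06, from -0.14 to -0.02 over the 17 alternatives). Of the 22, 0 had an unadjusted p under 0.05, beside 5.18% of all features. Gja1 and Gjb6, the astrocyte connexins, differed by -0.32 (SE 0.21) and -0.30 (SE 0.16), whereas Gfap, the astrocyte filament, was at -0.08 (SE 0.19). Of the 6 higher members, Aldoc was at 0.35 (SE 0.31; probes -0.15 and 0.84, of opposite sign), Clu at 0.26 (SE 0.24) and Apoe at 0.20 (SE 0.34). Microglia and macrophage markers were higher in 6 of 9 (median 0.15), oligodendrocyte and myelin markers in 13 of 27 (median -0.02), endothelial and mural markers in 15 of 29 (median 0.01) and blood markers in 3 of 6 (median -0.02). Of choroid plexus and ependyma markers 5 of 8 were higher and 3 lower (median 0.10, -0.01 without C57BL/6J replicate 1). An unadjusted p under 0.05 was found for 2 of the 8, both higher, beside 5.18% of all features. These 2, named because of that p, were Dynlrb2, a dynein chain of cilia, at 0.77 (SE 0.25) and Igf2, a growth factor secreted by choroid plexus, at 0.62 (SE 0.24). Tissue shares between arrays were not measured otherwise, and the part of cell makeup in any gene's difference was not tested.

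**Figure D5:**
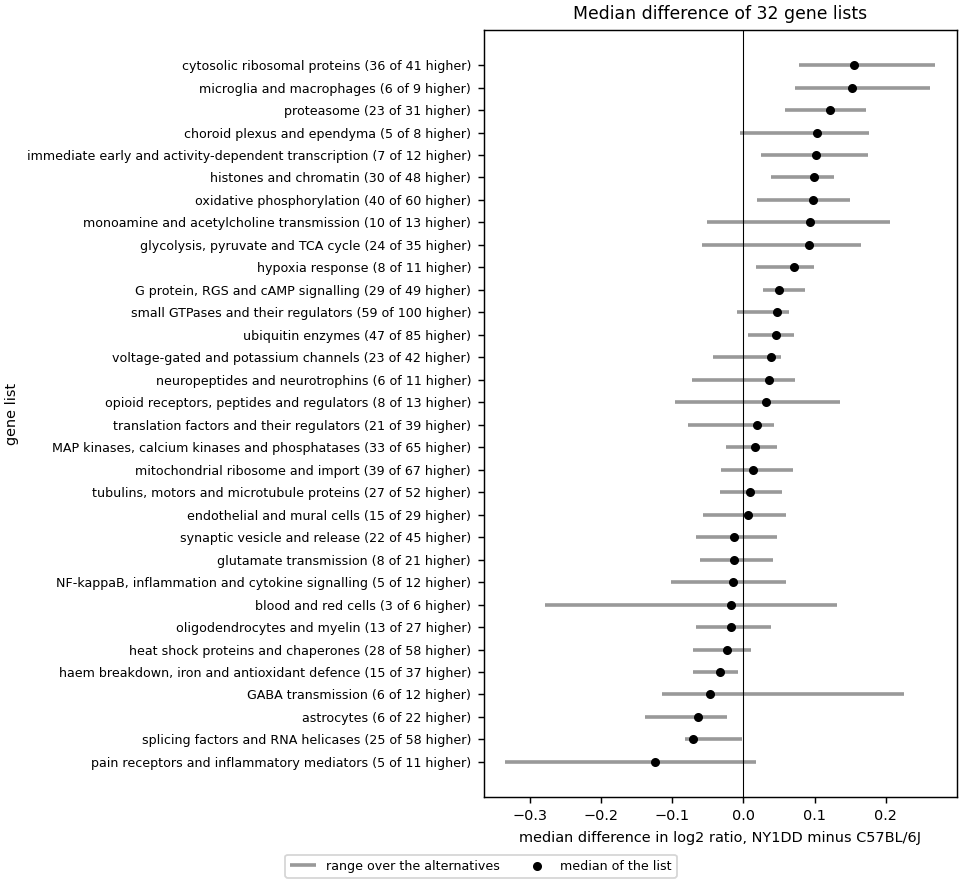
Median difference in log2 ratio, NY1DD minus C57BL/6J (horizontal axis), for 32 gene lists, with the count of higher members and a bar for the range over 17 alternative settings. Ribosomal proteins have the highest median (0.16) and pain receptors the lowest (-0.12), and for 20 lists the sign turned under at least 1 alternative.

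The 24 genes chosen for separated arrays and small p have varied roles. Ntn3, a netrin that guides axons, had 0.69, 0.90 and 0.52 in NY1DD and -0.19, -0.29 and -0.90 in C57BL/6J (difference 1.16, SE 0.24), and Enah, an actin regulator at growth cone tips, differed by 0.88 (SE 0.21). Mical3, an oxidase that disassembles actin, had -1.16, 0.15 and -1.65 in NY1DD and 0.73, 1.56 and 2.85 in C57BL/6J, the widest difference of this set at -2.60 (SE 0.64) and also a wide spread within each strain. Crkl, an adaptor protein, differed by -1.06 (SE 0.27). Small GTPases and their regulators were higher in 59 of 100 (median 0.05, -0.01 without C57BL/6J replicate 1), with 5 higher and 0 lower under an unadjusted p of 0.05 in limma, beside 3.28% and 1.90% of all features. They include Rasa2, a Ras inhibitor, at 0.91 (SE 0.24; 0.58, SE 0.39, before the well correction). Rab29, with no value on NY1DD replicate 1, was at 0.92 (SE 0.26; 0.66, SE 0.22, before the well correction). Tubulins, motors and microtubule proteins were higher in 27 of 52 (median 0.01), with the kinesin Kif13a at 1.09 (SE 0.38).

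Mgat5, a glycosyltransferase that branches N-glycans, had -0.56, -0.81 and -0.38 in NY1DD and 0.41, 0.32 and 0.18 in C57BL/6J (difference -0.89, SE 0.19). Lrp12, a receptor of the LDL receptor family, had -0.63, -0.06 and -0.80 against 0.80, 0.42 and 0.99 (difference -1.23, SE 0.26). In both genes every NY1DD array was below 0 and every C57BL/6J array above. Igdcc3, an immunoglobulin superfamily membrane protein, differed by -2.09 (SE 0.46), with C57BL/6J replicate 3 at 1.33 and the other C57BL/6J arrays at -0.08 and -0.20. The smallest p of the 24 belonged to 1700030K09Rik, with 0.07, 0.64 and 0.68 in NY1DD and -0.54, -0.72 and -0.87 in C57BL/6J (difference 1.18, SE 0.23). The rest of the 24 genes were Gpn3 (0.82), Tshz3, a zinc finger factor (0.74), Rrnad1 (0.80), Bmyc, a relative of Myc (0.83), and Rcn2, a calcium-binding protein of the endoplasmic reticulum (1.02) on the higher side. On the lower side they were Map10, a microtubule-associated protein (-0.79), Cndp2, a dipeptidase (-1.12), Rex1bd (-1.17), Zbtb43, a zinc finger factor (-0.68), and Otud7a, a deubiquitinase (-0.56). Before the well correction Gpn3 differed by 0.55 (SE 0.31).

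A set of 16 genes named for this difference in an earlier analysis without the well correction was followed through it. St3gal4, a sialyltransferase, had the largest value at 3.05 (SE 0.58), from 2.45 and 3.87 in NY1DD, with no value on replicate 2, against -0.62, 0.90 and 0.04 in C57BL/6J. Rcbtb2 differed by 2.04 (SE 0.30), Taf13, a subunit of the general transcription factor TFIID, by 1.50 (SE 0.30), and Hpca, a neuronal calcium sensor, by -1.95 (SE 0.30). Hpca had -2.06 and -1.87 in NY1DD and 0.16, 0.30 and -0.51 in C57BL/6J. Each of these 4 misses at least 1 array, and so do Dennd3, Ccnk, Nectin3, Rbp3 and Fance below. Taf13, Ccnk and Fance have values on just 2 arrays per strain. Dennd3, an exchange factor for Rab proteins, moved most with the correction, from -1.29 to -0.94 (SE 0.32). With values at the lower limit of the ratio kept, Dennd3 stood at 1.16 and Ccnk, a cyclin of transcription, at 0.76 in place of -1.66, so the sign of these 2 rests on how that limit is treated. The remaining members kept their sign, which the reuse of the same arrays largely fixes. Among them were Nectin3, a cell adhesion protein, at -1.63 (SE 0.27), Rbp3, a retinoid-binding protein, at -1.37 (SE 0.27), and Fance, a DNA repair protein, at -1.03 (SE 0.25).

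The array also carries clones whose probe names begin with SSH, which may mark a subtracted library, though their source was not checked. Of 358 such features 20 had an unadjusted p under 0.05 (5.59%), with a median difference of -0.001, against 482 of 9327 features on the numbered plates (5.17%). Both shares lie near the 5.18% of all features.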

How the data were processed

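Gene ratios were measured on 6 two-colour arrays. The authors deposited natural log (ln) ratios of the channels; how they were normalized, and with what software, is not given in the sources used here. The deposited values were rescaled to log2, the 293 at the lower limit (a ratio of 0.01) were set to missing, 30 control spots were left out, arrays were median-centred and well medians were subtracted. A probe needed 2 arrays per strain. Of 11502 probes, 7906 had 1 symbol, and probes sharing it were averaged, giving 9685 features. Single-channel intensities were not used, so signal over background is unknown.

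Limma (3.58.1, R 4.3.3) compared the strain means (NY1DD minus C57BL/6J) with two-sided tests, 4 residual degrees of freedom and Benjamini-Hochberg adjustment over all features at 0.05. SE and intervals come from this fit. The code was tested on simulated data. The replicate numbers did not pair the samples (correlations of deviations -0.08, 0.05 and 0.03).

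Genes are named by rule: the 12 per direction with the smallest p whose strain arrays do not overlap, the 8 per direction with agreeing probes, up to 3 per list under an unadjusted p of 0.05, and 16 from an earlier description. Some members of the opioid, immediate early, ribosomal, proteasome, haem, astrocyte and blood lists are also given. The comparison and the 32 lists were chosen with earlier results of these data known. Promoters are RefSeq's (GRCm38.p6).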

Additional observations from a re-analysis of the deposited data

How the results depend on the processing

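Limma passed 0 features in each of the settings run. Its smallest adjusted p was 0.179, without NY1DD replicate 3, for a probe with no gene symbol. The count at an unadjusted p under 0.05 ran from 325 to 551 when 1 array was left out, and the lowest, without C57BL/6J replicate 3, lies over 1.5 times below the 502 reported. It was 436 without the well correction, 566 with arrays scaled to one spread, 558 with array weights, and 410 with the C57BL/6J arrays that share a title number averaged, a choice made after seeing the data. With the replicate number as a block, the count was 563 and 0 features passed, and the numbers are no pairing by the check on deviations. Features without overlap numbered 943, 1692 to 2051 with 1 array left out, and 1795 with the title-number average, since fewer arrays separate more easily. Of 1270 values of the 77 named genes under alternatives, 1267 kept their sign, which follows largely from choosing these genes on the same arrays. The other 3 reversed with lower-limit values kept: Ccnk at 0.76, Dennd3 at 1.16 and Dgkz at 0.33. Of 32 list medians, 12 kept their sign in all 17 alternatives. These settings reuse the same arrays, so a kept sign is no independent support. The setting without centring of arrays gave the same counts, 502 and 943, since well medians are subtracted after it. A random block on the title number was not run, because 1 pair of arrays shares one and the correlation could not be fitted. Depth is unknown for these ratios.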
